A study of Mus musculus with 4 samples.

Results

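The genes described here are Osgin1, its paralog Osgin2 and 8 genes of the NRF2 oxidative stress response, in Neuro-2A cells that overexpressed the zinc-finger transcription factor Zac1. They were picked by symbol as a set of 10, to ask whether Osgin1 differed alone or together with the classic NRF2 genes. All 10 are among the 12861 genes listed with a gene ID, and all 10 passed the minimum mean of 10 normalised counts over the 4 libraries, as did 11433 genes in all. Osgin1 entered the set because of its large difference between the groups, so its values in that contrast are given as a description and support nothing by themselves.

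Neuro-2A is a mouse neuroblastoma line, labelled as of the Swiss Albino strain. The 2 Zac1 libraries came from cells transfected with the plasmid pRK5-Zac1, and the 2 CAT libraries from cells transfected with pRK5-CAT, which carries bacterial chloramphenicol acetyltransferase as a negative control. Both groups were transfected with Lipofectamine and lysed 16 h later. Each library averages transfected and untransfected cells, so more expressing cells and more RNA per cell cannot be told apart. Libraries are named by the number in their titles, 9 or 12.

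NRF2, encoded by Nfe2l2, is a transcription factor that the adaptor KEAP1 holds in the cytoplasm and delivers to proteasomal degradation. Oxidants and electrophiles modify KEAP1, NRF2 then accumulates, pairs with small MAF proteins and binds antioxidant response elements. Its classic targets detoxify quinones, degrade haem, make glutathione and reduce thioredoxin and peroxiredoxins. OSGIN1, the oxidative stress induced growth inhibitor, has been reported as NRF2-responsive in human cells.

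In digital gene expression a transcript is counted through a short tag beside its last DpnII site (GATC), so that the level does not scale with transcript length. The tags expected for the paralogs and for 3 of the NRF2 genes were read from the GENCODE M21 transcripts of mouse build GRCm38. They show where in each mRNA such a tag would lie. Which tags the deposited values rest on is not known. The capitals mark the DpnII site, each tag is 20 bases long, and these are predicted, not observed, sequences.
Osgin1: GATCtgtaataaaaccagct
Osgin2: GATCtccaagggttatgcgt
Hmox1: GATCagcactagctcatccc
Nqo1: GATCtccgtctcattctttc
Srxn1: GATCccatagcaagagaggg
The Osgin1 tag lies at chr8:119446228-119446247 on the plus strand, in the 3′ UTR and 29 bases before the transcript end counted from its first base. The Osgin2 tag lies at chr4:15997569-15997588 on the minus strand, also in the 3′ UTR. The Hmox1 tag, at chr8:75099923-75099942 on the plus strand, is coding, and its transcript has 1 DpnII site. The Nqo1 tag is at chr8:107388271-107388290 on the minus strand and the Srxn1 tag at chr2:152109965-152109984 on the plus strand, both in the 3′ UTR. For each of the 10 genes, 0 other annotated genes have the same predicted tag, so the paralogs Osgin1 and Osgin2 would be told apart by it. The coding transcripts of Gclm, Txnrd1 and Keap1 give 2 distinct tags per gene, and only that of the transcript chosen was compared.

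Recovered counts ranged from 11578920 to 13840674 per library. Set against counting error alone, which separate transfections are bound to exceed, the chi-square statistic divided by its degrees of freedom was 39.1 for the Zac1 pair and 13.6 for the CAT pair. The 3 comparisons that include Zac1 replicate 9 gave 33.2 to 40, and the others 12.8 to 13.6. Plagl1, the gene of Zac1, was at 3397 and 1475 normalised counts in Zac1 replicates 9 and 12, and had 0 counts in both CAT libraries. Of 20 neuroblastoma and neuronal markers, 18 were listed, with a summed level of 66373 and 66423 in the Zac1 libraries and of 70253 and 71126 in the CAT libraries. Of 20 markers of other cell types, 10 were listed, with a summed level of 472 and 496 in the Zac1 libraries and of 413 and 329 in the CAT libraries. Mbp alone made up 377 and 362 of that in the Zac1 libraries and 327 and 232 in the CAT libraries, and none of the other listed markers exceeded the 68.3 of Krt8 in Zac1 replicate 12. The myeloid markers Ptprc, Aif1 and Itgam were not listed.

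Osgin1 (gene ID 71839) had 500 and 603 normalised counts in Zac1 replicates 9 and 12, against 33.1 and 19.6 in CAT replicates 9 and 12. Both Zac1 libraries lay far above both CAT libraries. These values rest on 515 and 610 recovered counts in the Zac1 libraries and on 30 and 21 in the CAT libraries, so the control level is the less precise of the 2. The mean was 552 ± 72.8 in Zac1 cells and 26.4 ± 9.55 in CAT cells (SD, n = 2 each), a ratio of means of 20.9. On the log2(value + 1) scale the fold change was 4.38 ± 0.30 (SE, limma), with a 95% interval of 3.73 to 5.02. Osgin1 ranked 26 of 11433 genes by log2 fold change and, among the genes that passed limma at a Benjamini-Hochberg adjusted p under 0.05, 7 by its mean level in the Zac1 libraries. It was 1 of the 110 genes that passed as higher, which are 0.962% of those tested. 0 genes passed as lower (0%), with 110 lower genes at an unadjusted p under 0.05 in limma, and after adjustment 0 in DESeq2 and 0 in the quasi-likelihood test of edgeR. Because this contrast chose Osgin1, nothing is read from that share.

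The Zac1 libraries also differed from each other. Osgin1 was higher in Zac1 replicate 12 than in replicate 9, whereas Plagl1 was higher in replicate 9. Of the 110 genes that passed, 103 were higher in Zac1 replicate 9 and 7, Osgin1 included, in Zac1 replicate 12. Without Zac1 replicate 9 the log2 fold change of Osgin1 was 4.51, and without Zac1 replicate 12 it was 4.24. Its call was lost in both of these fits (limma adjusted p = 0.344 and 0.127, range over all alternatives 2.27e-49 to 0.344), in which 1 gene of all those tested passed.

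**Figure D1:**
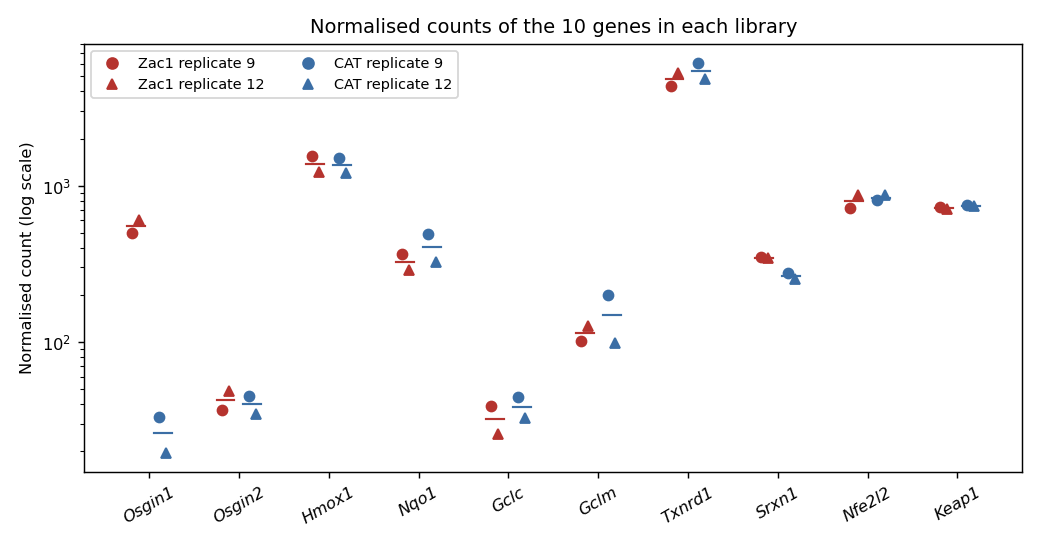
Normalised counts (log axis) of the 10 genes in each library, with Zac1 libraries in red left of CAT libraries in blue, circles for replicate 9, triangles for replicate 12 and a bar at the mean of 2. Osgin1 is at 500 and 603 in the Zac1 libraries and at 33.1 and 19.6 in the CAT libraries. The points of each of the other 9 genes lie closer together, least so for Gclm, whose CAT libraries are 2.02-fold apart.

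The promoter of Osgin1 is shown because it holds, alone among the promoters of the set found in the sequence table, a motif searched for Zac1. In the RefSeq promoter table (GRCm38.p6, 300 bases from 250 before to 50 after each start), 7 of the 10 genes matched, with 9 windows. The 7 were Osgin1, Nqo1, Gclm, Txnrd1, Srxn1, Nfe2l2 and Keap1; Osgin2, Hmox1 and Gclc are named only. The GC-rich palindrome GGGGCCCC, searched as a form of the element that Zac1 binds, is in capitals in the window at chr8:119436897-119437196, plus strand.
Osgin1: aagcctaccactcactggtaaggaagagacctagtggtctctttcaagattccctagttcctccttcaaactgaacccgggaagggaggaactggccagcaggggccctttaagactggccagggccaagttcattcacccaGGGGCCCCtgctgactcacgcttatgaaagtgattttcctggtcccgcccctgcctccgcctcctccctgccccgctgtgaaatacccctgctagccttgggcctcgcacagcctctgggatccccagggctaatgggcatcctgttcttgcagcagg
The palindrome occurred once, starting at position -108 from the annotated start, and reads the same on both strands. It was found in 354 of the 32851 windows of the table, or 1.08%. The core of the antioxidant response element, searched on both strands as exactly TGACNNNGC, was not in the Osgin1 window. Forms of the element that differ from it in a fixed letter were not searched. The letters tgctgactcac, directly after the palindrome, were therefore not assessed, and the window may hold another form of the element. The TGACNNNGC core was in the windows of 4 of the 7 genes, namely Gclm, Txnrd1 (in 1 of its 3 windows), Srxn1 and Nfe2l2. Counted per window, it was in 4 of the 9, and in 12.4% of all windows of the table. A match or its absence says only which letters stand in these windows.

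Osgin2 (gene ID 209212), the paralog of Osgin1, had 36.9 and 48.5 normalised counts in Zac1 replicates 9 and 12, against 45.4 and 34.6 in CAT replicates 9 and 12. The groups overlapped. Its log2 fold change was 0.09 ± 0.39 (SE; limma adjusted p = 0.990), with a 95% interval of -0.74 to 0.92. In CAT cells both paralogs were thus low, at means of 26.4 for Osgin1 and 40.02 for Osgin2, and only for Osgin1 does the interval lie above a 2-fold rise; the difference between the paralogs' changes was not tested.

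The regulators of the pathway did not pass. Nfe2l2 (gene ID 18024), which encodes NRF2 itself, had 716 and 868 normalised counts in the Zac1 libraries, against 806 and 871 in the CAT libraries. The groups overlapped, with a log2 fold change of -0.09 ± 0.22 (SE; limma adjusted p = 0.983). Keap1 (gene ID 50868), the gene of the adaptor that represses NRF2, had 726 and 714 normalised counts in the Zac1 libraries, against 747 and 736 in the CAT libraries. Both Zac1 libraries were below both CAT libraries, by little, and its log2 fold change was -0.04 ± 0.21 (limma adjusted p = 0.991). Such an order without overlap was seen in 16.7% of all genes tested. NRF2 is controlled mainly at the protein level, which these libraries do not measure.

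Of the 6 classic NRF2 target genes in the set 0 passed in limma, 0 had an unadjusted p under 0.05 (5.23% of all genes tested had one and were higher, and 0.962% were lower), and 0 passed in edgeR's quasi-likelihood test or DESeq2 on recovered counts. Hmox1 (gene ID 15368), the inducible haem oxygenase, had 1548 and 1221 normalised counts in the Zac1 libraries, against 1503 and 1199 in the CAT libraries. The groups overlapped almost fully, with the library numbered 9 the higher in each. That order, 9 above 12 in both groups, held for 5 of the 10 members and 25.1% of all genes tested, and the reverse for 1 of the 10 and 27.3%. In a limma fit with plasmid and number, chosen after the data were seen, 0 of the 10 members passed for the number and 0 had an unadjusted p under 0.05, while 0.166% of all genes tested passed as higher in 9 and 0.455% as lower. The log2 fold change was 0.03 ± 0.22 (SE; limma adjusted p = 0.994), with a 95% interval of -0.44 to 0.51.

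Nqo1 (gene ID 18104), the quinone reductase, had 363 and 288 normalised counts in the Zac1 libraries, against 491 and 324 in the CAT libraries. Here too the groups overlapped and the libraries numbered 9 were higher. The log2 fold change was -0.30 ± 0.26 (SE; limma adjusted p = 0.983).

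The 2 subunits of glutamate-cysteine ligase, which makes the first step of glutathione synthesis, were among the less abundant members. Gclc, the catalytic subunit gene (gene ID 14629), had 38.9 and 25.7 normalised counts in the Zac1 libraries, against 44.3 and 32.8 in the CAT libraries. Gclm, the modifier subunit gene (gene ID 14630), had 102 and 128 in the Zac1 libraries, against 200.4 and 99.2 in the CAT libraries. The groups overlapped for both genes, and the CAT libraries of Gclm differed 2.02-fold from each other. Their log2 fold changes were -0.26 ± 0.42 for Gclc and -0.30 ± 0.33 for Gclm (SE; limma adjusted p = 0.983 for both). The interval for Gclc, -1.16 to 0.64, is the widest of the set and reaches past a 2-fold fall.

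Txnrd1 (gene ID 50493), cytosolic thioredoxin reductase, was the most abundant member, with 4347 and 5273 normalised counts in the Zac1 libraries, against 6038 and 4777 in the CAT libraries. The groups overlapped, and the log2 fold change was -0.17 ± 0.22 (SE; limma adjusted p = 0.983). Srxn1 (gene ID 76650), sulfiredoxin, which repairs overoxidised peroxiredoxins, had 351 and 342 normalised counts in the Zac1 libraries, against 276 and 253 in the CAT libraries. Both Zac1 libraries lay above both CAT libraries, an order seen in 17.2% of all genes tested. Its log2 fold change, 0.39 ± 0.23 (SE), was the largest of the 9 genes other than Osgin1 and did not pass (limma adjusted p = 0.944; smallest adjusted p over all alternatives 0.309).

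Set side by side, Osgin1 differed between the groups by a ratio of means of 20.9, and the other 9 genes by ratios from 0.766 for Gclm to 1.31 for Srxn1. The 9 genes had a median log2 fold change of -0.09, with 3 above 0 and 6 below, against -0.01 over all genes tested, of which 48.4% were above 0. The upper bound of the 95% interval was below a 2-fold rise for 9 of the 9, as for 82.6% of all genes tested. In data simulated for this comparison, limma called 46% of 2-fold rises and 98% of 4-fold rises, so a gene without a call could still have a 2-fold rise, and the bound on the 9 genes comes from their intervals.

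**Figure D2:**
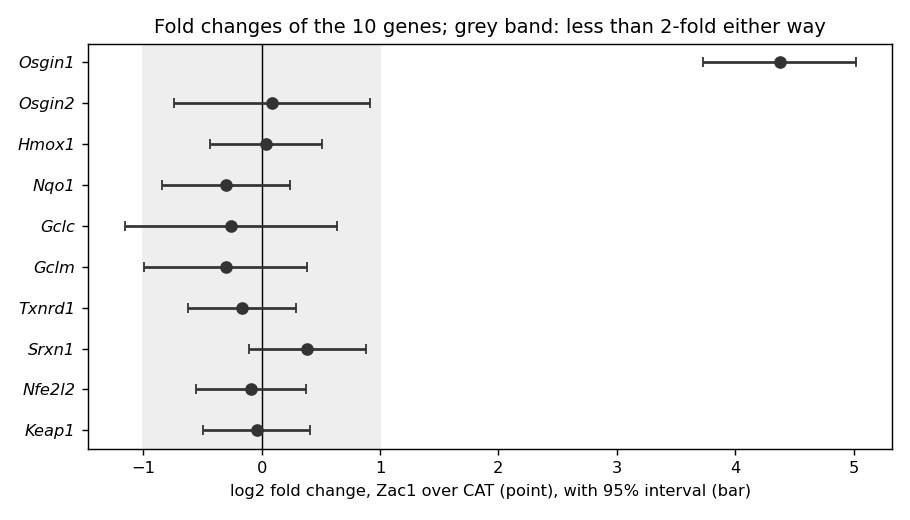
Log2 fold change of each gene, Zac1 over CAT, on the log2(value + 1) scale, with the 95% interval from limma (2 libraries per group) and a grey band for changes of less than 2-fold. Osgin1 is at 4.38, and the other 9 genes lie between -0.30 and 0.39, with the interval of Gclc alone reaching out of the band.

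**Figure D3:**
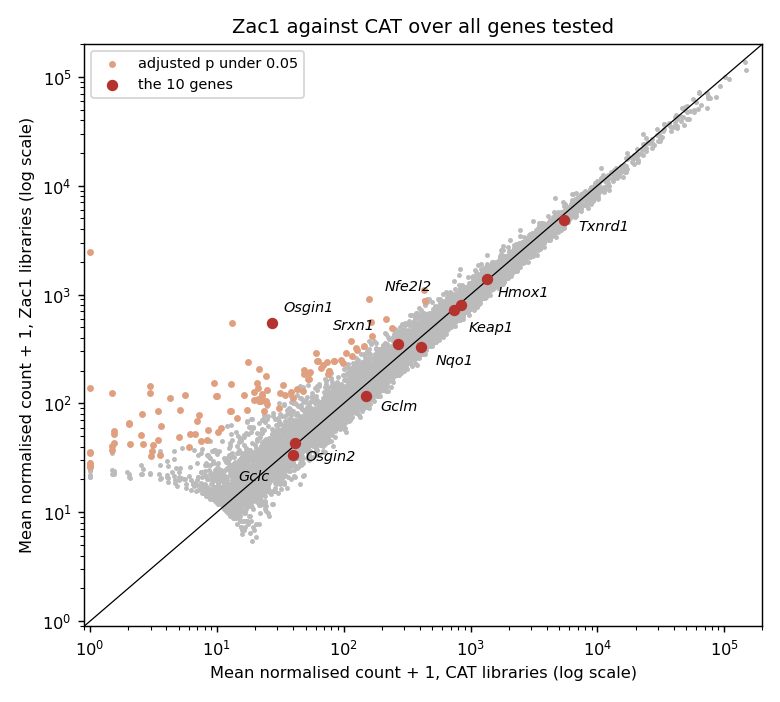
Mean normalised count + 1 of each of 11433 genes in Zac1 libraries (vertical, log axis) against CAT libraries (horizontal, log axis), with the diagonal marking equality, the 110 genes past the threshold in orange and the 10 genes in red. Osgin1 stands above the diagonal at means of 552 in Zac1 and 26.4 in CAT libraries, and the other 9 lie on or beside it.

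Other regulators of NRF2, from 20 genes of which 18 were tested, gave 0 rises and 0 falls in limma, 1 higher gene at an unadjusted p under 0.05, and 0 calls in edgeR's quasi-likelihood test and DESeq2. Over all genes tested 0.962% rose, and 5.23% were higher at an unadjusted p under 0.05, so 1 of 18 is near that share. That gene was Rxra, a nuclear receptor gene whose product can repress NRF2. It had 346 and 216 normalised counts in the Zac1 libraries, against 135 and 154 in the CAT libraries, a log2 fold change of 0.91 ± 0.27 (SE; limma adjusted p = 0.199). Maff, which encodes a small MAF partner of NRF2, had a log2 fold change of 0.44 ± 0.23, Sqstm1, the autophagy adaptor that binds KEAP1, 0.27 ± 0.21, and Pgam5, a mitochondrial phosphatase that binds KEAP1, -0.41 ± 0.21. The median of the list was 0.08.

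Further NRF2 targets were also without a call. Of 40 genes 31 were listed and 29 tested, and limma gave 0 rises, 0 falls and 1 higher gene at an unadjusted p under 0.05, with 0 calls in DESeq2 and in edgeR. That 1 of 29 stands beside the 5.23% of all genes tested. It was Ugdh, UDP-glucose dehydrogenase, with 863 and 693 normalised counts in the Zac1 libraries, against 484 and 572 in the CAT libraries (log2 fold change 0.56 ± 0.23, SE; limma adjusted p = 0.597). The most abundant targets were the ferritin chains and thioredoxin. Ftl1, the ferritin light chain gene, had 29826 and 24767 normalised counts in the Zac1 libraries, against 26651 and 22062 in the CAT libraries. Fth1, the heavy chain gene, had 11879 and 11677, against 14017 and 9792. Txn1, thioredoxin, had 15435 and 12176, against 14092 and 13889. All 3 overlapped between the groups. The lowest log2 fold changes of the list were those of the catalase gene Cat, -0.82 ± 0.52, which is not the transfected control gene, and of the aldehyde dehydrogenase gene Aldh3a1, -0.81 ± 0.42; neither passed (limma adjusted p = 0.952 and 0.904). The list had a median of -0.03, with 10 genes above 0 and 19 below.

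No antioxidant enzyme gene outside the classic NRF2 set passed. Of 28 genes 23 were tested, with 0 past the threshold in limma, 0 at an unadjusted p under 0.05, and 0 in edgeR's quasi-likelihood test or DESeq2, where over all genes tested 0.962% rose and 5.23% were higher and 0.962% lower at an unadjusted p. The median log2 fold change was -0.10. Sod1, cytosolic superoxide dismutase, had 13239 and 16853 normalised counts in the Zac1 libraries, against 16712 and 15930 in the CAT libraries. Prdx3, the mitochondrial peroxiredoxin gene, had 1386 and 1666 in the Zac1 libraries, against 1981 and 1986 in the CAT libraries, without overlap, as in 16.7% of all genes tested, and its log2 fold change of -0.38 ± 0.21 (SE) did not pass (limma adjusted p = 0.923).

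Among genes of oxidant production and p53-linked redox control, 1 of 10 tested rose and 0 fell, against 0.962% and 0% of all genes tested. Ncf1, which encodes the organiser subunit p47phox of the phagocyte NADPH oxidase, had 119.6 and 47.4 normalised counts in the Zac1 libraries, against 7.92 and 16.0 in the CAT libraries. The groups did not overlap, though the Zac1 libraries differed widely (log2 fold change 2.63 ± 0.51, SE; limma adjusted p = 0.0181). The call was lost when Zac1 replicate 9 was left out (log2 fold change 1.97, limma adjusted p = 0.824), when Zac1 replicate 12 was left out (3.29, 0.129), when the variance trend was dropped (0.108) and after a GC correction (0.0617). Over all alternatives the adjusted p ranged between 1.29e-06 and 0.824. Cyba, another oxidase subunit gene, was below the minimum mean, at 7.81 and 0.976 normalised counts in the Zac1 libraries, against 0.0126 and 0.946 in the CAT libraries. Of the myeloid markers, Cd68 was at 2.89 and 5.94 in the Zac1 libraries, against 12.1 and 6.50 in the CAT libraries, and Csf1r at 7.81 and 1.97, against 0.0126 and 0.946; their part in the Ncf1 result was not tested. Sesn2, a sestrin gene, had 309 and 309 in the Zac1 libraries, against 396 and 486 in the CAT libraries, and did not pass (log2 fold change -0.50 ± 0.23, SE; limma adjusted p = 0.764).

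The ATF4 branch, which raises amino acid and cystine supply under stress, was tested through 10 genes. In limma 0 passed, 1 was lower at an unadjusted p under 0.05 (Sesn2, also in the list above; 0.962% of all genes tested were lower at that p), and 0 passed in edgeR's quasi-likelihood test or DESeq2. Atf4 had 12022 and 19300 normalised counts in the Zac1 libraries, against 17232 and 21966 in the CAT libraries, and Asns, asparagine synthetase, 4999 and 7538, against 6648 and 8171. The groups overlapped for both, and the median of the list was -0.03.

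**Figure D4:**
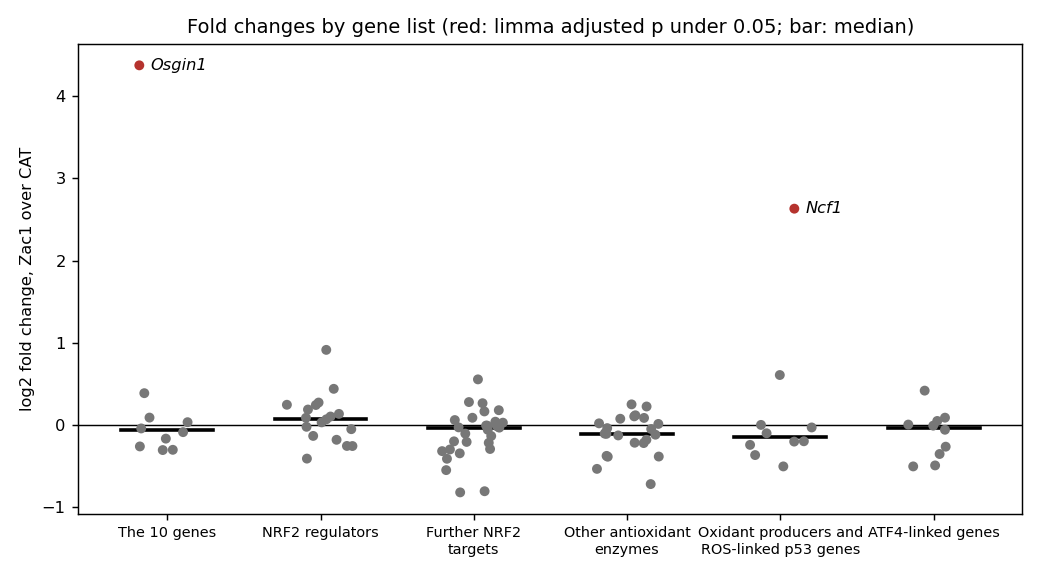
Log2 fold change, Zac1 over CAT, of each tested gene in the set of 10 and in the other 5 lists, with a bar at the list median and red for a limma adjusted p under 0.05. Osgin1 (4.38) and Ncf1 (2.63) are the red points, and the list medians lie between -0.15 and 0.08.

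Genes whose pattern over the 4 libraries was most like that of Osgin1 were found by the Euclidean distance between log2(value + 1) profiles centred on their mean. The 5 nearest of all genes tested were Pitx3, Gnat1, Pnmt, Dmrtc2 and Adam11, at distances of 0.657 to 0.938. All 5 were much less abundant than Osgin1 in Zac1 cells. Pitx3, a homeobox gene, had 24.3 and 18.8 normalised counts in the Zac1 libraries, against 1 and 0 recovered counts in the CAT libraries. Pnmt, the enzyme gene that makes adrenaline from noradrenaline, had 21.3 and 32.6 in the Zac1 libraries, against 0 and 0 recovered counts in the CAT libraries, and was the nearest gene that, like Osgin1, was higher in Zac1 replicate 12. The likeness rests on 4 libraries and on the same contrast that chose Osgin1. All 5 are below 10 normalised counts in both CAT libraries, passed the minimum mean only through the Zac1 libraries, and have a log2(value + 1) change that depends on the added 1, so nothing is read from their nearness to Osgin1, which was counted in both groups.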

How the data were processed

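Digital gene expression libraries (DpnII tags, 2 µg of total RNA, 15 PCR cycles, per the labels' protocols) were made from 2 Zac1 and 2 CAT transfections; samples were grouped by title. The deposited table holds a normalised signal per gene, pseudocounts after TMM normalization per its name, and the submitters' processing notes name edgeR and mm9. For tag mapping, assignment to genes and strand handling nothing is given in those sources. Since the values were not whole, the test was limma 3.58.1 (R 4.3.3) with a trend, two-sided, on log2(value + 1), which understates changes of low genes; Benjamini-Hochberg adjustment ran over 11433 genes with a mean of at least 10 (1428 excluded), at 0.05. In 5 of 12866 lines no gene ID was given (0% to 0.00897% of counts), and they were left out.

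Inverting the quantile adjustment (dispersion 0.0364) gave whole counts from which 100% of the deposited signal could be rebuilt within 1e-06; on simulated data it recovered 100% of 51196 counts. edgeR 4.0.16 and DESeq2 1.42.0 were run on these counts as alternatives. P-values measure the spread between 2 transfections per group, with 14.1 prior degrees of freedom against 2 residual ones. In simulated data limma also called 44% of 2-fold falls and 5 of 11143 unchanged genes. Intervals do not cover PCR duplication.

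The members and lists were chosen with earlier results of these data known. All 10 members are named; of each list, the genes past the threshold and some with the smallest unadjusted p or the highest mean. Cyba, Gpx3, Gpx8, Chac1, Cd68 and Csf1r were named after their values were seen. List genes were matched by symbol or, for 2 of them, by gene ID.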

Additional observations from a re-analysis of the deposited data

How the results depend on the processing

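Osgin1 kept its direction under all 13 alternatives, at log2 fold changes of 4.01 to 4.74. Its call was lost without Zac1 replicate 9 or without Zac1 replicate 12. Since this contrast chose Osgin1, nothing is read from its calls. No other member passed under any of the 13 alternatives. With the replicate block limma gave 279 rises in place of 110 and 1 call among the NRF2 regulators (Rxra, adjusted p = 0.0225, range over alternatives 0.0225 to 1.00); same-numbered libraries deviated together over genes (correlation 0.20), but 2 pairs and a shared number do not show that they are paired. The GC correction left 51 rises and 0 among oxidant producing genes, and limma without a trend also 0 there; the cause was not tested. Leaving out 1 library gave 1 to 154 rises, 0 to 5 falls, 0 to 1 members higher and 0 to 1 oxidant producing genes higher; with Zac1 replicate 9 or 12 left out, the lone Zac1 library is assumed to vary like the CAT libraries, and fewer samples enter.

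Signs of values that never passed turned in some settings. With equal-total scaling Keap1 was at 0.020 and Txn1 at 0.033. After the GC correction Hmox1 was at -0.063, Ftl1 at -0.142, Fth1 at -0.003 and Txn1 at 0.011. Fth1 was at -0.004 in edgeR and at -0.014 in DESeq2. Without 1 library, the log2 fold changes ranged from -0.10 to 0.28 for Osgin2, -0.14 to 0.20 for Hmox1, -0.55 to 0.029 for Gclc, -0.81 to 0.20 for Gclm, -0.34 to 0.003 for Txnrd1, -0.23 to 0.052 for Nfe2l2, -0.56 to 0.032 for Asns, -0.50 to 0.10 for Cdkn1a, -1.38 to 0.39 for Cth, -0.13 to 0.23 for Ddit3, -0.25 to 0.27 for Fth1, -0.77 to 0.018 for Glrx5, -0.061 to 0.27 for Gsk3b, -0.084 to 0.29 for Prdx2, -0.30 to 0.047 for Sod1, -0.20 to 0.14 for Txn1, -0.26 to 0.041 for Txn2 and -0.66 to 0.18 for Txnip. Depth limits Osgin1 most in CAT cells, where it rests on 30 and 21 counts.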

Other observations

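Some stress genes differed between libraries numbered 9 and 12 in both groups. Gpx8, a peroxidase gene of the endoplasmic reticulum, had 0 and 25.8 normalised counts in Zac1 replicates 9 and 12, and 0.189 and 19.0 in CAT replicates 9 and 12. Cth, cystathionine gamma-lyase, had 103 and 353 in Zac1 replicates 9 and 12, and 193 and 373 in CAT replicates 9 and 12. Chac1, a glutathione-degrading enzyme gene, had 588 and 1241 in the Zac1 libraries, and 710 and 1113 in the CAT libraries. In the ATF4 list 8 of 10 genes were lower in the library numbered 9 in both groups, against 27.3% of all genes tested. Of the 10 members 5 were higher in the library numbered 9 in both groups, against 25.1% of all genes tested. A limma fit with plasmid and number, chosen after the data were seen, gave the log2 difference of 9 minus 12. It was -1.36 for Cth (limma adjusted p = 7.56e-05) and -0.86 for Chac1, which did not pass (limma adjusted p = 0.0505). For Gpx8 the difference was -4.41, which depends on the added 1. Gpx8 passed the minimum mean only through the libraries numbered 12, so no test is read for it. Of 11433 genes, 19 passed as higher and 52 as lower in the libraries numbered 9. What the numbers stand for is not given in the labels. These 3 genes were picked after their values were seen.

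The GC content of the longest Osgin1 transcript was 59.3%, above that of 93.1% of the genes tested. The median was 58.3% for the 110 genes that passed and 50% for the others. After the correction for GC content the log2 fold change of Osgin1 was 4.01, given as a description only, since this contrast chose the gene.

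Gpx3, a secreted glutathione peroxidase gene below the minimum mean, had 22.4 and 7.89 normalised counts in the Zac1 libraries, against 2.22 and 1.87 in the CAT libraries, with no test.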
